A study of Mus musculus with 6 samples.

Results

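The genes described here are 9 mouse genes whose proteins write, maintain or erase DNA methylation or write the repressive histone mark H3K27 methylation. They are *Dnmt1*, *Dnmt3a*, *Dnmt3b*, *Uhrf1*, *Tet1*, *Tet2*, *Tet3*, *Ezh1* and *Ezh2*. They were listed by name, with no threshold on their values, and are 9 of the 34745 genes in the deposited tables. RNA was measured by bulk RNA sequencing of bone marrow hematopoietic stem cells (HSCs) of adult C57BL/6 mice, sorted as CD150+CD34-CD48- cells of the LSK (lineage negative, Sca-1+, c-Kit+) fraction. The WT group (n = 3 libraries) carried floxed alleles of *Med23*, a subunit of the Mediator complex that links transcription factors to RNA polymerase II, and its genotype is written WT(Med23floxp/flowp) in the labels. The KO group (n = 3 libraries) was *Med23*-deficient. In the study's design the floxed alleles were deleted by *Mx1-cre*, a Cre transgene that interferon switches on and that is not restricted to HSCs, after injections of poly(I:C), an inducer of interferon. The sources used here give no age beyond adult and no interval between injection and sorting for these libraries, and do not say whether the WT mice of these libraries were injected. They also do not say whether the replicates came from separate animals. In each group the library numbered 3 differed from replicates 1 and 2 in sex-linked transcripts (below), so it came from a different animal or animals. For replicates 1 and 2 this is not known. The p-values therefore measure only the spread between these libraries, which may in part be technical.

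DNA methylation in mammals sits mainly on cytosines of CpG pairs. After replication the new strand is unmethylated, and Uhrf1 recognises such half-modified sites and brings in Dnmt1, which copies the pattern. Dnmt3a and Dnmt3b add methylation at new sites, and the Tet enzymes oxidise 5-methylcytosine as a first step of its removal. Ezh1 and Ezh2 are the alternative catalytic subunits of Polycomb repressive complex 2 (PRC2), which methylates lysine 27 of histone H3. In blood, *Dnmt3a*, *Tet2* and *Ezh2* are known as genes whose loss changes HSC self-renewal and which are recurrently mutated in myeloid disease.

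The libraries held 3537269 to 8131344 counts on genes, the lowest of them in the library labelled WT replicate 3. *Med23* itself, measured over the whole gene, was at 47.6, 70.8 and 24.1 normalized CPM (counts relative to the TMM-scaled library total) in the libraries labelled WT replicates 1, 2 and 3, and at 31.6, 29.9 and 36.8 CPM in KO replicates 1, 2 and 3. The 3 KO libraries all exceeded the library labelled WT replicate 3, against its label, and *Med23* did not pass the test (log2 fold change of -0.54, SE 0.41, edgeR adjusted p = 0.989). The log2 fold change of each of the 9 genes is therefore also given without that library. Both libraries numbered 3 also stood apart from the others in sex-linked transcripts, with 4819 and 7853 *Xist* counts against 8 to 111 in the other 4, and with 1 and 0 counts of the Y-linked *Uty* against 195 to 326.

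All 10 HSC sort and stem cell markers examined, among them *Kit* and *Slamf1* (CD150), were detected in every library, and none was called by edgeR. Of the 10, 3 had an unadjusted p under 0.05, where 5.71% of all tested genes did. *Kit*, *Ly6a* (Sca-1) and the stem cell factor *Hlf* had all 3 KO values below all 3 WT values, as in 6.15% of all tested genes. Their log2 fold changes were -0.38 (SE 0.18), -0.78 (SE 0.27) and -0.81 (SE 0.25). *Mecom*, another stem cell factor, was higher in every KO library, as in 6.25% of all tested genes, at 0.61 (SE 0.23). The part of these differences within the sorted cells in the values of the 9 genes was not tested. The T cell marker *Cd3e*, the B cell marker *Ms4a1* and the granulocyte marker *Ly6g* were at 0 counts in all 6 libraries, whereas *Cd34* mRNA was present at 1109 to 2930 counts although the sort left out cells with surface CD34, and was higher in every KO library (log2 fold change 0.40, SE 0.20). Of 4 lists of other cell types, the sums of 2 separated the groups. The summed level of 22 skeletal muscle genes was 196 to 500 CPM in WT and 11.9 to 46.9 CPM in KO, with all of its genes detected in every WT library and 11 to 13 of them at 0 in each KO library. Of its 18 tested genes, edgeR called 3 lower in KO, where 0.0559% of all tested genes were called lower. The 15 mature granulocyte and monocyte genes summed to 492 to 654 CPM in WT and 801 to 1133 CPM in KO, with 5 or 6 of them at 0 in each WT library and 2 to 6 in each KO library. Of the 5 tested genes of that list, 3 estimates were higher and 2 lower in KO. *Prtn3* was at 83.0, 141 and 86.5 CPM in WT and at 304.5, 307 and 355 CPM in KO. *Itgam* was at 4.92, 0.737 and 12.05 CPM in WT and at 79.8, 79.2 and 73.7 CPM in KO. *Mpo* was at 175 CPM in KO replicate 3 and at 0 to 4.72 CPM in the other libraries. *Lyz2*, an abundant member of that list, had a log2 fold change of -0.08 (SE 0.19) with groups that overlapped. The groups overlapped in the sums of the other lists. The 10 erythroid genes summed to 1298 to 1731 CPM in WT and 1096 to 1379 CPM in KO, with 1 to 4 at 0 in each library, and the 13 B, T and NK cell genes to 74.4 to 110.0 CPM in WT and 78.8 to 90.2 CPM in KO, with 8 to 10 of them at 0 in each library. The part of other cell types in the values of the 9 genes was not tested. In bulk samples of this kind, fewer cells of a type and less RNA per cell cannot be told apart.

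All 9 genes passed the filter on low counts, as did 12513 genes in all. None of the 9 passed an adjusted p of 0.05 between KO and WT by edgeR's quasi-likelihood test, where 0.0719% of all tested genes did (0.016% higher and 0.0559% lower in KO), and none had an unadjusted p under 0.05, where 5.71% of all genes did. DESeq2 and limma voom with sample weights called none of the 9 either. The estimates were higher in KO for 5 of the 9 and lower for 4, with a median log2 fold change of 0.0014, beside 49.5% higher and 50.5% lower and a median of -0.0054 over all tested genes. In 1 of the 9, *Dnmt3a*, the groups did not overlap, where 12.4% of all genes had groups that did not overlap. With 3 libraries a group the fit left wide intervals, and a change of 1 on the log2 scale lay inside the 95% interval in the direction of the estimate for *Dnmt1*, *Dnmt3a*, *Uhrf1*, *Tet2*, *Ezh1* and *Ezh2*.

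**Figure D1:**
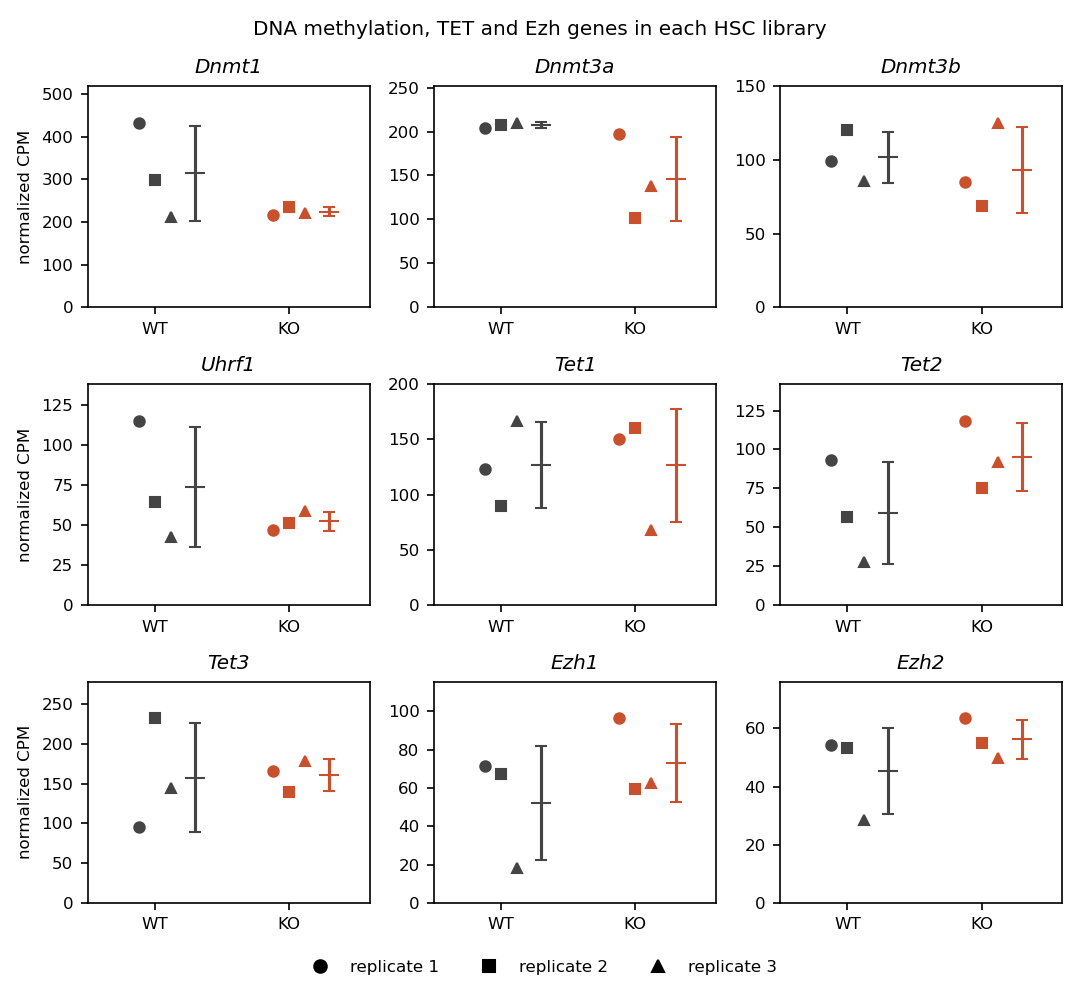
Normalized CPM of the 9 genes (y axis, from 0 in each panel) in each library, with WT in grey and KO in orange, 1 marker shape for each replicate number and a bar at the group mean. In *Dnmt3a* the 3 KO points lie below the 3 WT points, and in the other 8 genes the groups overlap.

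**Figure D2:**
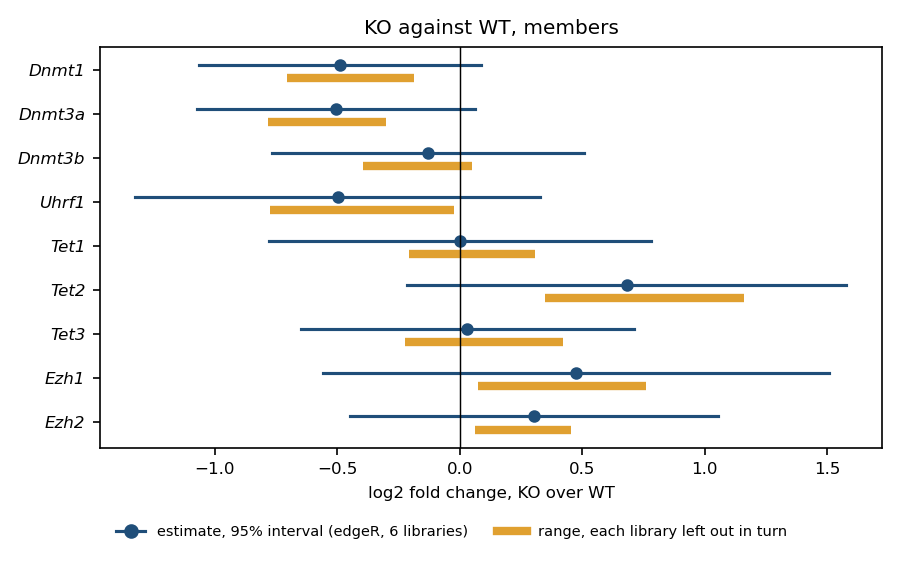
Log2 fold change of KO over WT (x axis) for the 9 genes. The edgeR estimate and its 95% interval are from all 6 libraries, and a second bar is the range of estimates with each library left out in turn. All 9 intervals include 0, from *Dnmt3a* at -0.51 to *Tet2* at 0.68. For *Tet2*, *Ezh1* and *Ezh2* the low end of the range is the estimate without the library labelled WT replicate 3.

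The maintenance pair *Dnmt1* and *Uhrf1* had the same form across libraries, with a wide WT range and a narrow KO range. *Dnmt1* (ENSMUSG00000004099, GRCm38 chr9:20907209-20959888, minus strand) was at 433, 299 and 212 CPM in the libraries labelled WT replicates 1, 2 and 3 and at 216, 236 and 220 CPM in the KO libraries. The KO libraries thus sat at the low end of the WT range, just above the library labelled WT replicate 3. Its mean was 315 ± 111 CPM (SD, n = 3) in WT and 224 ± 10.5 CPM (SD, n = 3) in KO. The log2 fold change was -0.49 (SE 0.26, 95% interval -1.06 to 0.09, edgeR adjusted p = 0.932, exact two-sided permutation p = 0.4, where 0.1 is the smallest that 3 against 3 allows). Without the library labelled WT replicate 3 the estimate was -0.71 (edgeR adjusted p = 0.573), and without WT replicate 1 it was -0.19 (edgeR adjusted p = 0.967).

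*Uhrf1* (ENSMUSG00000001228, chr17:56303321-56323486, plus strand) was at 115, 64.3 and 42.3 CPM in the WT libraries and at 47.2, 51.3 and 58.9 CPM in the KO libraries. As for *Dnmt1*, the highest value was in WT replicate 1 and the lowest in the library labelled WT replicate 3, with the KO libraries between. The means were 74.0 ± 37.5 CPM (SD, n = 3) and 52.5 ± 5.92 CPM (SD, n = 3), with a log2 fold change of -0.50 (SE 0.37, 95% interval -1.32 to 0.33, edgeR adjusted p = 0.989, exact permutation p = 0.6). This estimate rested on single libraries, being -0.77 without the library labelled WT replicate 3 and -0.03 without WT replicate 1. Its transcript with the longest coding sequence shares a stretch of 1590 bases at 98.3% identity with the gene *Gm5648*. The count table does not list *Gm5648*, so *Uhrf1* counts are uncertain to that extent. For the other 8 genes, the transcript with the longest coding sequence shared no 200 or more bases at 95% identity or above with another gene. Exons outside that transcript were not searched. Overlapping genes covered at most 2.61% of the exon bases of any of the 9.

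The spread between libraries differed in size between the groups for both genes. The SD of log2 CPM was 0.52 in WT and 0.07 in KO for *Dnmt1*, and 0.72 and 0.16 for *Uhrf1*, beside a median of 0.35 and 0.30 over the 6313 genes with a mean of at least 200 counts. The sum of the cell cycle genes had its highest and lowest library in common with this pair. The summed level of 16 cell cycle genes, such as the MCM helicase subunits and *Pcna*, was 1830, 1410 and 997 CPM in the libraries labelled WT replicates 1, 2 and 3 and 1272, 1402 and 1252 CPM in the KO libraries, so that WT replicate 1 was highest and the library labelled WT replicate 3 lowest. *Mcm6* was the largest part of this sum, at 772, 525 and 316 CPM in the WT libraries and at 432, 566 and 423 CPM in KO. The single genes did not all have the order of the sum. Of the 16, 10 were highest in WT replicate 1, where 18.2% of all tested genes had their highest value. In the library labelled WT replicate 3, 6 were lowest (ties included), where 24.6% of all tested genes had their lowest value. Of the 16, 5 were both. Whether cycling cells made the spread in *Dnmt1* and *Uhrf1* was not tested. None of the 16 was called by edgeR, and 5 estimates were higher and 11 lower in KO (median log2 fold change -0.20), with *Ccna2*, a cyclin of S phase and mitosis, at -1.18 (SE 0.63), the proliferation marker *Mki67* at -1.16 (SE 0.66), and the helicase subunits *Mcm5* and *Mcm3* at 0.44 (SE 0.39) and 0.32 (SE 0.30).

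**Figure D3:**
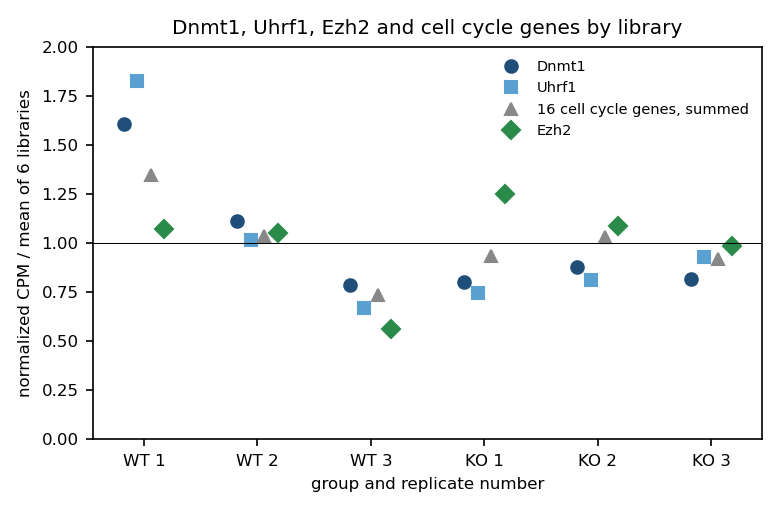
Normalized CPM of *Dnmt1*, *Uhrf1*, *Ezh2* and the sum of 16 cell cycle genes, each divided by its mean over the 6 libraries (y axis, from 0), in each library (x axis). *Dnmt1*, *Uhrf1* and the cell cycle sum are all highest in WT replicate 1 and lowest in the library labelled WT replicate 3, while *Ezh2* is lowest in that library and highest in KO replicate 1.

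Among the 9 genes, *Uhrf1* was the one whose centred log2 CPM over the 6 libraries lay nearest to that of *Dnmt1* (root mean square difference 0.159, rank 21 of 10136 genes searched), and *Dnmt1* was the nearest of the 9 to *Uhrf1* (rank 6). The pair is known to be transcribed with the S phase programme under E2F factors, so the RefSeq promoter windows (250 bases before each annotated start, GRCm38.p6) were searched for the E2F letters TTTCGCGC and TTTGGCGC on both strands. These letters were in 215 of 32851 promoter windows (0.655%). Among the windows of the 9 genes they were found in 1 window of *Dnmt1* and 1 of *Uhrf1*. The 30 bases around each match are shown because among the windows of the 9 genes these letters were in those of this pair alone, with the matched letters in capitals, 5′ to 3′ on the strand of the gene. The *Dnmt1* stretch is chr9:20952824-20952853 (minus strand) and lies in an exon of 2 of its 7 annotated transcripts, and the *Uhrf1* stretch is chr17:56304117-56304146 (plus strand) and lies in no annotated exon of its 7 transcripts.
Dnmt1: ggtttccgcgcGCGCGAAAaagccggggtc
Uhrf1: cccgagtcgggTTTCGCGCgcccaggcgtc
In *Dnmt1* the letters are the reverse complement of TTTCGCGC, and in *Uhrf1* they read TTTCGCGC as written. Both windows also hold the more common letters CCAAT (in 33.85% of all windows, both strands) and GGGCGG (in 32.7%), which windows of other genes of the 9 hold too. A match of letters is a description and not a measured binding site, and no match says only that these letters are not in that window.

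The de novo enzymes differed from each other in form. *Dnmt3a* (ENSMUSG00000020661, chr12:3806007-3914443, plus strand) was at 204, 208 and 210 CPM in the WT libraries and at 198, 102 and 138 CPM in the KO libraries. Every KO library was below every WT library, as in 6.15% of all tested genes, but KO replicate 1 was only just below the lowest WT value. The means were 207 ± 3.09 CPM (SD, n = 3) and 146 ± 48.2 CPM (SD, n = 3), with a log2 fold change of -0.51 (SE 0.26, 95% interval -1.07 to 0.06, edgeR adjusted p = 0.928, exact permutation p = 0.1, the smallest possible). Here the spread lay in KO, with an SD of log2 CPM of 0.02 in WT and 0.47 in KO, the opposite of *Dnmt1*. The estimate was -0.50 without the library labelled WT replicate 3, and ran from -0.78 to -0.30 with each library left out in turn.

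*Dnmt3b* (ENSMUSG00000027478, chr2:153649450-153687730, plus strand) was at 99.4, 120 and 85.6 CPM in the WT libraries and at 85.3, 69.0 and 125 CPM in the KO libraries. Both its lowest and its highest value were in KO libraries. The log2 fold change was -0.13 (SE 0.29, 95% interval -0.77 to 0.51, edgeR adjusted p = 0.997, exact permutation p = 0.7), and -0.24 without the library labelled WT replicate 3. The log2 ratio of *Dnmt3b* over *Dnmt3a*, taken within each library from FPKM (counts scaled to library size and gene length) plus 0.1, was 0.66, 0.90 and 0.40 in WT and 0.48, 1.11 and 1.54 in KO. The mean ratio was 0.39 higher in KO (exact permutation p = 0.3, 0.6 adjusted over 3 ratios), and KO replicate 1 lay inside the WT range. The difference was 0.27 without the library labelled WT replicate 3, ran from 0.145 (without KO replicate 3) to 0.67 (without KO replicate 1) with each library left out, and was 0.019 without both libraries numbered 3.

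The 3 Tet genes had no common direction. *Tet2* (ENSMUSG00000040943, chr3:133463679-133545139, minus strand) was at 93.1, 56.8 and 27.8 CPM in the libraries labelled WT replicates 1, 2 and 3 and at 119, 75.5 and 91.7 CPM in the KO libraries. WT replicate 1 lay inside the KO range and the other WT libraries below it. The means were 59.2 ± 32.7 CPM (SD, n = 3) and 95.2 ± 21.7 CPM (SD, n = 3), with a log2 fold change of 0.68 (SE 0.40, 95% interval -0.22 to 1.58, edgeR adjusted p = 0.961, exact permutation p = 0.3). It was the highest estimate of the 9 and it depended on single libraries, being 0.35 without the library labelled WT replicate 3 and 1.16 without WT replicate 1.

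*Tet1* (ENSMUSG00000047146, chr10:62804570-62908996, minus strand) was at 123.02, 89.6 and 167 CPM in WT and at 151, 161 and 67.8 CPM in KO. The 2 libraries numbered 3, which stood apart in sex-linked transcripts, held its highest and its lowest value. Its log2 fold change was 0.0014 (SE 0.35, 95% interval -0.78 to 0.78, edgeR adjusted p = 0.9996, exact permutation p = 0.8), 0.25 without the library labelled WT replicate 3 and 0.56 (edgeR adjusted p = 0.809) without both libraries numbered 3. *Tet3* (ENSMUSG00000034832, chr6:83362373-83459084, minus strand) was at 96.0, 232 and 145 CPM in WT and at 166, 140 and 179 CPM in KO. The KO values lay inside the WT range, and the log2 fold change was 0.03 (SE 0.31, 95% interval -0.65 to 0.71, edgeR adjusted p = 0.997, exact permutation p = 0.8), and -0.03 without the library labelled WT replicate 3. The log2 ratio of *Tet2* over *Tet3* was -0.68, -2.62 and -2.89 in WT and -1.11, -1.50 and -1.58 in KO, so *Tet3* was the more abundant per length in every library. The ratio was 0.66 higher in KO (exact permutation p = 0.4, 0.6 adjusted over 3 ratios) and 0.25 higher without the library labelled WT replicate 3, while it was 1.36 higher without WT replicate 1 (exact permutation p = 0.1, the smallest that 2 against 3 allows).

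The PRC2 enzymes were near equal in mean FPKM, and in both the library labelled WT replicate 3 was the lowest of the 6. *Ezh1* (ENSMUSG00000006920, chr11:101191115-101226463, minus strand) was at 71.4, 67.2 and 17.9 CPM in the libraries labelled WT replicates 1, 2 and 3 and at 96.2, 59.5 and 62.7 CPM in the KO libraries. The value of 17.9 CPM rested on 58 counts, the fewest of any of the 9 genes in any library. The log2 fold change was 0.47 (SE 0.47, 95% interval -0.56 to 1.51, edgeR adjusted p = 0.992, exact permutation p = 0.6), and 0.07 without the library labelled WT replicate 3.

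*Ezh2* (ENSMUSG00000029687, chr6:47530139-47595341, minus strand) was at 54.3, 53.3 and 28.4 CPM in the WT libraries and at 63.4, 55.1 and 49.98 CPM in the KO libraries. WT replicates 1 and 2 fell inside the KO range. The log2 fold change was 0.30 (SE 0.34, 95% interval -0.45 to 1.05, edgeR adjusted p = 0.997, exact permutation p = 0.4), and 0.06 without the library labelled WT replicate 3. The log2 ratio of *Ezh2* over *Ezh1* was -0.09, -0.03 and 0.92 in the libraries labelled WT replicates 1, 2 and 3 and -0.30, 0.19 and -0.03 in KO. Apart from the library labelled WT replicate 3, at 0.92, the ratio was near 0, which is equal level for the gene lengths behind the FPKM values. The difference between groups was -0.31 (exact permutation p = 0.7, 0.7 adjusted over 3 ratios), and 0.016 without that library. By the length of the transcript with the longest coding sequence, the mean of the 6 libraries was 18.2 CPM per kb for *Ezh2* and 14.9 for *Ezh1*.

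For 5 of the 9 genes, namely *Dnmt1*, *Uhrf1*, *Tet2*, *Ezh1* and *Ezh2*, the lowest value of the 6 libraries was in the library labelled WT replicate 3, where 24.6% of all tested genes had theirs. *Tet1* and *Dnmt3a* had their highest value there. That library also had the fewest counts, and whether its depth or its *Med23* level has a part in these values was not tested.

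Compared per length, *Dnmt1* was the most abundant of the 9 in these HSCs. Its mean over the 6 libraries was 42.3 ± 14.6 FPKM (SD, n = 6), followed by *Uhrf1* at 11.96, *Dnmt3b* at 10.8, *Tet3* at 8.32, *Dnmt3a* at 6.01, *Ezh1* at 5.67, *Ezh2* at 5.64, *Tet1* at 4.36 and *Tet2* at 2.60 FPKM. *Dnmt1* exceeded *Uhrf1* by 1.86 ± 0.18 on the log2 scale (SD, n = 6), higher in 6 of 6 libraries. The mean log2 ratio of every other pair of neighbours in this order was smaller than its SD over the 6 libraries. The order of these neighbours thus varied within the spread between libraries, although *Dnmt3b* was above *Tet3* in 6 of 6 libraries (0.39 ± 0.41 on the log2 scale, SD, n = 6).

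The order also depended on the gene length used. The lengths behind the FPKM values were between 1.19 (*Dnmt1*) and 3.32 (*Tet2*) times that of the transcript with the longest coding sequence in GENCODE M21. With the length of that transcript the levels were 50.2 CPM per kb for *Dnmt1*, 26.8 for *Tet3*, 22.6 for *Dnmt3b*, 18.2 for *Dnmt3a*, 18.2 for *Ezh2*, 17.6 for *Uhrf1*, 14.9 for *Ezh1*, 8.80 for *Tet1* and 8.56 for *Tet2*. *Dnmt1* remained first, 0.90 ± 0.71 (SD, n = 6) above its neighbour *Tet3* on the log2 scale, while *Uhrf1* moved from second to sixth.

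**Figure D4:**
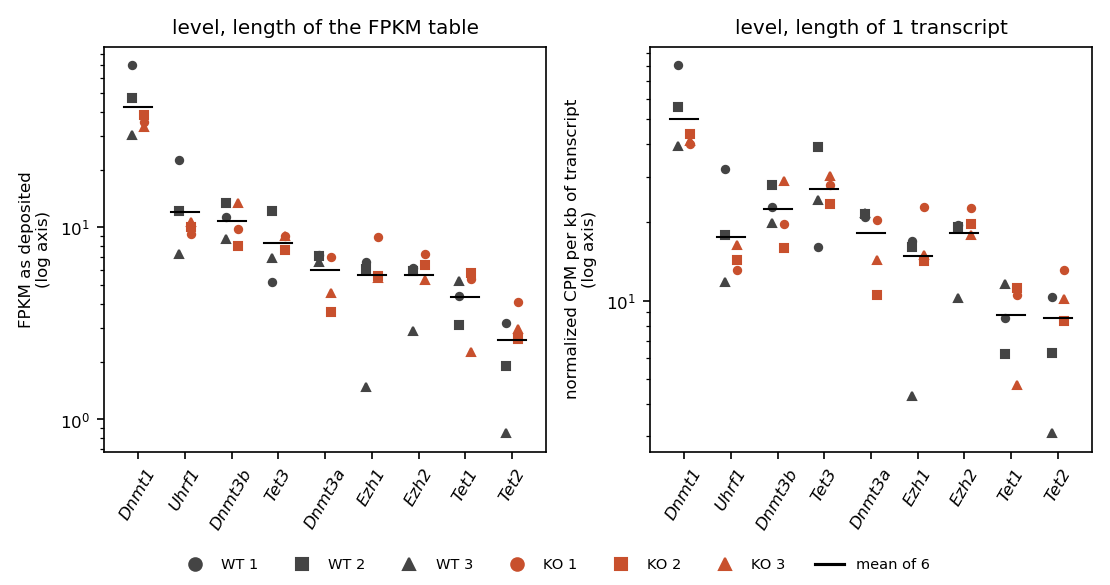
Levels of the 9 genes per length on log axes, left as FPKM and right as normalized CPM per kb of the transcript with the longest coding sequence, with 1 point for each library (WT in grey, KO in orange) and a bar at the mean of the 6. *Dnmt1* is highest on both scales, at 42.3 FPKM and 50.2 CPM per kb, and the points of the other genes overlap between neighbours.

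The other genes of these pathways were read from lists of cofactors, and none of their members passed an adjusted p of 0.05 by edgeR. Of the DNA methylation cofactors, 11 of 13 were tested, with 2 estimates higher and 9 lower in KO (median -0.10). *Cdca7*, a partner of the remodeller Hells in maintaining methylation, was at 238, 182 and 77.0 CPM in the WT libraries and at 105, 81.9 and 85.0 CPM in KO. This is again a WT range from replicate 1 down to the library labelled WT replicate 3 with KO at its low end, and the log2 fold change was -0.87 (SE 0.36, edgeR adjusted p = 0.814). *Ahcy*, which clears S-adenosylhomocysteine, the product that inhibits methyltransferases, was at -0.84 (SE 0.63). *Lig1*, the ligase of lagging strand replication, and *Uhrf2*, the paralog of *Uhrf1*, were at 0.03 (SE 0.46) and 0.10 (SE 0.33).

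Readers of methylated CpGs were tested for 7 genes, with 2 estimates higher and 5 lower in KO (median -0.13). *Zbtb4*, a zinc finger reader, was at 31.0, 19.0 and 34.0 CPM in the WT libraries and at 47.4, 38.6 and 57.9 CPM in KO. Every KO library was above every WT library, as in 6.25% of all tested genes, but the log2 fold change of 0.78 (SE 0.37) was not called by edgeR (adjusted p = 0.909). The readers *Zbtb38*, *Zbtb33* and *Mbd2* were at 0.51 (SE 0.29), -0.94 (SE 0.47) and -0.26 (SE 0.59), with groups that overlapped.

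Among genes that remove oxidised cytosines or regulate the Tet enzymes, 11 of 13 were tested, with 6 estimates higher and 5 lower (median 0.009). *Tdg*, the glycosylase that excises the oxidised bases made by Tet enzymes, was at 23.2, 31.0 and 25.96 CPM in the WT libraries and at 73.5, 83.4 and 71.6 CPM in KO. The groups were far apart relative to their spread, at 26.7 ± 3.95 CPM (SD, n = 3) and 76.2 ± 6.29 CPM (SD, n = 3). The log2 fold change was 1.51 (SE 0.30, 95% interval 0.85 to 2.17, exact permutation p = 0.1, the smallest possible), and it ran from 1.42 to 1.63 with each library left out in turn. Tests across all genes did not give *Tdg* the same call, with an edgeR adjusted p of 0.18 and a DESeq2 adjusted p of 0.00161, and the adjusted p ran from 0.00161 to 0.633 over its 17 alternatives, of which the 2 with DESeq2 were under 0.05.

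*Tdg* has near-identical copies, so its counts are uncertain. In all, 5 other genes share 200 or more bases at 95% identity or above with its transcript with the longest coding sequence. The longest match was 2968 bases at 98.7% with *Tdg-ps*. *Tdg-ps* was at 19.5, 9.59 and 18.5 CPM in WT and at 18.8, 20.4 and 17.4 CPM in KO, with a log2 fold change of 0.26 (SE 0.47, edgeR adjusted p = 0.997). These values do not show how reads shared between the copies were assigned, and such reads were not examined. *Gadd45g*, of a family linked to DNA demethylation, was at 0.77 (SE 0.52), *Apex1*, an endonuclease of base excision repair, at -0.77 (SE 0.37), and *Idh1*, a source of the Tet cofactor 2-oxoglutarate, at -0.44 (SE 0.45). *Gadd45b*, named after its values were seen, also had every KO library above every WT library, at 1.29 (SE 0.67) on 22 to 82 counts a library.

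Of the 13 PRC2 core and accessory subunits listed beside Ezh1 and Ezh2, 10 were in the table and all 10 were tested, with 5 estimates higher and 5 lower (median 0.06). *Jarid2*, which helps to recruit PRC2, had the highest estimate at 0.94 (SE 0.44, edgeR adjusted p = 0.909), with WT values of 49.6, 53.1 and 20.7 CPM and KO values of 119, 46.0 and 72.4 CPM. As for *Ezh1* and *Ezh2*, its lowest value was in the library labelled WT replicate 3. The accessory subunits *Phf1* and *Mtf2* were at 0.41 (SE 0.47) and -0.15 (SE 0.30), and the core subunit *Eed*, which binds the methylated lysine, at -0.06 (SE 0.44).

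The 3 genes of the H3K27 demethylase family, none of them called by edgeR, had positive estimates, with a median of 0.53. *Kdm6b* was at 21.3, 49.9 and 77.3 CPM in WT and at 58.1, 72.2 and 95.5 CPM in KO (log2 fold change 0.61, SE 0.43). *Kdm6a* was at 0.53 (SE 0.45), and the Y-linked *Uty*, whose protein is weakly active, at 0.02 (SE 1.48). In both autosomal *Kdm6b* and X-linked *Kdm6a* the groups overlapped.

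**Figure D5:**
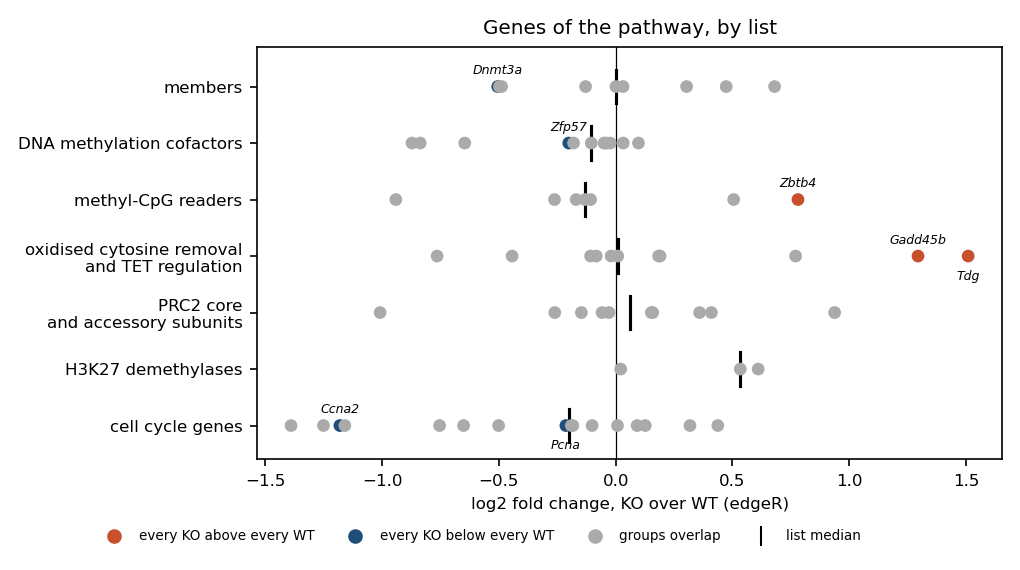
Log2 fold change of KO over WT by edgeR (x axis) for each tested gene of the 9 and of 6 lists of related genes (y axis), with a bar at the median of each list. Genes with every KO library above every WT library are orange (*Tdg*, *Gadd45b*, *Zbtb4*), those with every KO library below are blue (*Dnmt3a*, *Zfp57*, *Ccna2*, *Pcna*), and the others are grey. Over all tested genes, 12.4% had groups that did not overlap.

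For each of the 9 genes the most alike genes over the 6 libraries were found by the root mean square difference of centred log2 CPM, as a description over 6 points that share depth and sample make-up. *Dnmt1* was nearest to *Pa2g4* (0.08) and *Acad11* (0.11), *Uhrf1* to *Pla2g6* (0.13) and *Tcta* (0.14), *Dnmt3a* to *Slc22a3* (0.09) and *Uap1l1* (0.09), and *Dnmt3b* to *Stau1* (0.06) and *Bfar* (0.09). *Tet1* was nearest to *Farp2* (0.08) and the cell cycle inhibitor *Cdkn1a* (0.10), *Tet2* to *Cinp* (0.15) and *Zscan12* (0.15), and *Tet3* to *Hgs* (0.05) and *Gstm7* (0.10). *Ezh1* was nearest to *Tmem167b* (0.09) and *Acbd5* (0.12), and *Ezh2* to *Sh3kbp1* (0.07) and *Ghitm* (0.08). Of the 9 genes themselves, the nearest to *Tet2* was *Ezh1* (0.28, rank 75), and the nearest to *Dnmt3a* was *Dnmt3b* at a difference of 0.40 and only rank 1398.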

How the data were processed

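RNA of 3 WT and 3 KO libraries of sorted HSCs was analysed, grouped by the labels. Per the labels RNA was amplified with a SMART-Seq v4 kit, whereas the study's methods name a TruSeq kit, and no molecular identifiers are described. Amplified reads are not independent molecules. The deposited tables hold raw counts for each gene and FPKM, which the authors made by scaling the same counts to the table's total and to a fixed length of each gene. The submitters' processing notes name TopHat, HTSeq and mm10, while the annotation and strand setting are not given in the sources used here. Antisense reads therefore cannot be told apart.

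Counts were fitted in R 4.3.3 with edgeR 4.0.16 (filterByExpr, TMM scaling, robust quasi-likelihood test, no covariate), with Benjamini-Hochberg adjustment over the 12513 genes kept and a threshold of 0.05. Normalized CPM uses the TMM library sizes. Exact two-sided permutation tests used log2(normalized CPM + 0.5), and paralog ratios log2(FPKM + 0.1). DESeq2 1.42.0 and limma 3.58.1 served as alternatives. The steps were tested on simulated data of 3 WT against 3 KO libraries. There edgeR called 7.81% of genes given a log2 change of 1, 51.6% at 2 and 82% at 4. Of the gene identifiers 34344 of 34745 were found in GENCODE M21 (GRCm38). Near-identical copies were sought at 95% identity over at least 200 bases, for the transcript with the longest coding sequence of each gene searched.

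The 9 genes and all lists were chosen with earlier results of these data known. Beside the 9 genes and *Med23*, the text names in each list of related genes those past the threshold and the 2 highest and 2 lowest estimates (mean of 50 counts or more), and for each of the 9 the 2 most alike genes. No replicates of a group held the same values, and their counts differed by more than counting noise, which amplified technical repeats could also do. The libraries numbered 3 also differed from the others in sex-linked transcripts, which repeats of the same animal would not do. One gene of a list of related genes is not reported here.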

Additional observations from a re-analysis of the deposited data

How the results depend on the processing

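None of the 9 genes was called under any alternative run (lowest adjusted p 0.573, *Dnmt1* without the library labelled WT replicate 3, edgeR). The number of all genes called was 9 by edgeR (2 higher, 7 lower in KO), 120 by DESeq2 with or without independent filtering, 0 by limma voom with sample weights (955 at an unadjusted p under 0.05), 15 on log2(FPKM + 1) with a filter and 1 without, and 5 to 11 with each library left out in turn, lowest without WT replicate 1. A replicate block left 5 genes called, with 1005 of 12513 at an unadjusted p under 0.05. With this block *Dnmt3a* was at -0.56 (edgeR unadjusted p = 0.0369, adjusted p = 0.579). *Tet2* was then at 0.80 (edgeR unadjusted p = 0.0398, adjusted p = 0.595). Same-numbered libraries deviated together with correlations of 0.17, 0.0324 and 0.17, not above 0.1 for every number, and WT replicate 2 correlated no better with its own number than with KO replicate 1 (0.035). The numbers were therefore not taken to pair the libraries, although those numbered 3 share their sex-linked transcripts. The sign of the *Tet1* estimate was negative by DESeq2 (-0.0091), upper quartile scaling (-0.0195), the replicate block (-0.0332) and log2(FPKM + 0.1) (-0.0044), and ran from -0.21 to 0.31 with each library left out and was 0.56 without both libraries numbered 3. *Tet3* ran from -0.23 to 0.42 and was -0.095 without both libraries numbered 3, and *Dnmt3b* ran from -0.40 to 0.0493 and was -0.50 without both. The difference in the log2 ratio of *Ezh2* over *Ezh1* ran from -0.49 to 0.016 and was 0.0069 without both libraries numbered 3. The cause of these changes was not tested. The lowest depth, 3537269 counts in the library labelled WT replicate 3, puts 3 counts at 0.927 CPM, far below every value of the 9 genes.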
